A study of Mus musculus with 8 samples.

Results

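Imprinted genes are expressed from only the maternal or only the paternal copy, a choice set by DNA methylation laid down in the germ line. Many of them act on growth: Igf2 encodes an insulin-like growth factor, Igf2r the receptor that removes it, Grb10 an adaptor that restrains signalling from the insulin and IGF1 receptors, and Ndn the growth suppressor necdin, which restrains division in blood stem cells. Several are high in the fetus and low after birth, and adult hematopoietic stem cells are among the adult cells in which some remain transcribed. The account covers 10 of these genes among 23358 genes in the count table. They were chosen by name as imprinted growth regulators, with earlier results of these data known. They are Ndn, Grb10, Igf2, H19, Igf2r, Dlk1, Peg3, Plagl1, Mest and Impact. All 10 were in the table and all 10 passed the filter on low counts.

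RNA was sequenced from stem cells of mouse bone marrow, taken by sorting Lin-Sca+Kit+CD48-CD150+ cells, in 3 groups that differ in Huwe1, a gene for a large ubiquitin ligase on the X chromosome. In 3 knockout libraries, here Mx1-Cre, a conditional Huwe1 allele is labelled as deleted by Mx1-Cre, a recombinase driven by an interferon-inducible promoter that is also active outside blood cells. In 2 knockout libraries, here Vav-Cre, it is labelled as deleted by Vav-Cre, which acts in blood cells from fetal life. The 3 wild-type (WT) libraries name neither a recombinase nor an inducing agent, so that loss of Huwe1 and the presence of a recombinase or an inducer cannot be told apart. Age, sex and strain are not given in the labels used here, and nothing says whether libraries of a group came from separate animals, so p-values measure the spread between these libraries. All comparisons against WT share the same 3 WT libraries.

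The libraries held 28689765 to 33202926 counts each. Levels are given as CPM, counts scaled to library depth, after TMM scaling, a correction for differences in library makeup. Huwe1 itself had 418 ± 23.4 CPM in Mx1-Cre, 467.5 ± 32.2 in Vav-Cre and 421 ± 20.5 in WT (SD, n = 3, 2 and 3). This whole-gene count cannot show the loss of single exons, so the groups are called by their labels. All 20 listed stem cell markers were detected, with a summed level of 5229 to 8073 CPM in Mx1-Cre, 7074 to 7544 in Vav-Cre and 6904 to 8032 in WT. Of 14 erythroid markers 10 were detected, with a summed level of 6308 to 7719 CPM in Mx1-Cre, 4595 to 6415 in Vav-Cre and 5090 to 5983 in WT. The rest, the hemoglobin genes Hba-a1, Hba-a2, Hbb-b1 and Hbb-b2, are listed at 0 in every library, and the reason was not tested. Among the stem cell markers Fgd5 fell with both lines averaged, Procr and Esam also fell in Mx1-Cre, and Slamf1 and Fgd5 were higher in Vav-Cre than in Mx1-Cre. The summed levels of 12 myeloid progenitor markers were 195 to 251 CPM in Mx1-Cre, 186 to 422 in Vav-Cre and 494 to 766 in WT. With both lines averaged 6 of the 12 fell (Mpo, Elane, Csf3r, Fcgr3, Gfi1 and Clec12a), against 2.1% of all tested genes. Of the other markers, Bgn, Rhd and Mmrn1 fell with both lines averaged, and Vwf fell in Mx1-Cre. In bulk RNA, fewer cells of a type and less RNA per cell cannot be told apart.

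The promoters of the members called with both lines averaged are shown where RefSeq gave 1 or 2 for a gene. The DNA methylation that controls imprinting falls on the base C followed by G. Each is the 250 bases before the annotated start, 5′ to 3′ on the gene's own strand, from RefSeq on GRCm38.p6, with every CG in capitals. The counts were made on mm9, another build.
Ndn, chr7:62348027-62348276, plus strand: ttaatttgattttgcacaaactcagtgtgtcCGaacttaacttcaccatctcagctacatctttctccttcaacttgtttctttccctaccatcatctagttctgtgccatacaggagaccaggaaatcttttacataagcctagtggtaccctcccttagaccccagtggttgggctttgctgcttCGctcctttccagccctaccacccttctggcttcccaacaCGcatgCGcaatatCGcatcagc
Grb10, first start, chr11:12037421-12037670, minus strand: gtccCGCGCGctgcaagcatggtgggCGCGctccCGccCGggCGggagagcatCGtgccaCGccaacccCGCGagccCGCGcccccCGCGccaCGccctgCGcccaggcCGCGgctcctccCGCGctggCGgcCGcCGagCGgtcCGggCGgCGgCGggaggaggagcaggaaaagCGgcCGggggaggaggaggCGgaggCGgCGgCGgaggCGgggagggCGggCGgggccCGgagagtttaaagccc
Grb10, second start, chr11:12027972-12028221, minus strand: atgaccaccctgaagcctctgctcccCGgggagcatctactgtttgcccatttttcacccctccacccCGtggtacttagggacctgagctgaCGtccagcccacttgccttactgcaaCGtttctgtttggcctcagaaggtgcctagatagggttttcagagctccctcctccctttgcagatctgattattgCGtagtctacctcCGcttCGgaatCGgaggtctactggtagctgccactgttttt
Peg3, chr7:6730420-6730669, minus strand: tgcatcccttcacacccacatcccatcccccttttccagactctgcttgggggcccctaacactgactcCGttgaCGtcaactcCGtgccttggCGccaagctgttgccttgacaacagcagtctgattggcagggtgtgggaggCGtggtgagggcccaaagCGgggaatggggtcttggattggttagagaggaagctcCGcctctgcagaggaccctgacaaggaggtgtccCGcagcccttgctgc
The Ndn window holds 5 CG, and 55.6% of 32851 promoter windows of the same length hold as many or more. The first Grb10 window holds 40, reached by 1.31% of windows, while the second Grb10 window and the Peg3 window hold 8 each, reached by 43% of windows. CG reads the same on both strands. These letters say nothing of the methylation in these cells, which was not measured.

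Ndn was the member with the firmest difference. Necdin belongs to the MAGE family, is made from the paternal copy, and in mouse blood stem cells is known as a brake on division. Ndn had 156, 191 and 122 counts in the Mx1-Cre libraries, 347 and 274 in the Vav-Cre libraries, and 654, 850 and 1013 in the WT libraries. The groups did not overlap: each Mx1-Cre library lay below each Vav-Cre library, and both lay below every WT library. Its mean level was 5.36 ± 1.38 CPM in Mx1-Cre, 10.3 ± 2.59 in Vav-Cre and 27 ± 5.02 in WT. With both knockout lines averaged it fell to 0.275 of WT (log2 fold change -1.86 ± 0.23, SE; edgeR quasi-likelihood test, adjusted p = 0.00491). In Mx1-Cre alone it fell to 0.199 of WT (log2 fold change -2.33 ± 0.27, adjusted p = 0.00442 by edgeR). In Vav-Cre alone the edgeR log2 fold change was -1.39 ± 0.30 with an adjusted p of 0.0731, which does not pass 0.05. The difference between the lines, Vav-Cre minus Mx1-Cre, was 0.95 ± 0.28 on the log2 scale and did not pass either (edgeR adjusted p = 0.209).

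Grb10, which restrains insulin and IGF1 receptor signalling and is made from the maternal copy in most tissues, followed the same order of groups. It had 1020, 592 and 1046 counts in Mx1-Cre, 1350 and 1662 in Vav-Cre, and 1967, 2558 and 3930 in WT. Again no libraries of different groups overlapped once scaled, with 21.5 to 37.1 CPM in Mx1-Cre, 47.3 and 51.5 in Vav-Cre and 64.9 to 122 in WT. Grb10 fell with both lines averaged (log2 fold change -1.23 ± 0.22, edgeR adjusted p = 0.0217) and in Mx1-Cre (log2 fold change -1.59 ± 0.26, edgeR adjusted p = 0.0133). In Vav-Cre the edgeR log2 fold change was -0.87 ± 0.29, with an adjusted p of 0.214. The WT spread bears on these calls: without WT 2 or without WT 3 the edgeR adjusted p with both lines averaged was 0.0958 or 0.112, and in Mx1-Cre it was 0.0586 or 0.0557, and 0.0615 without Mx1-Cre 1.

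**Figure D1:**
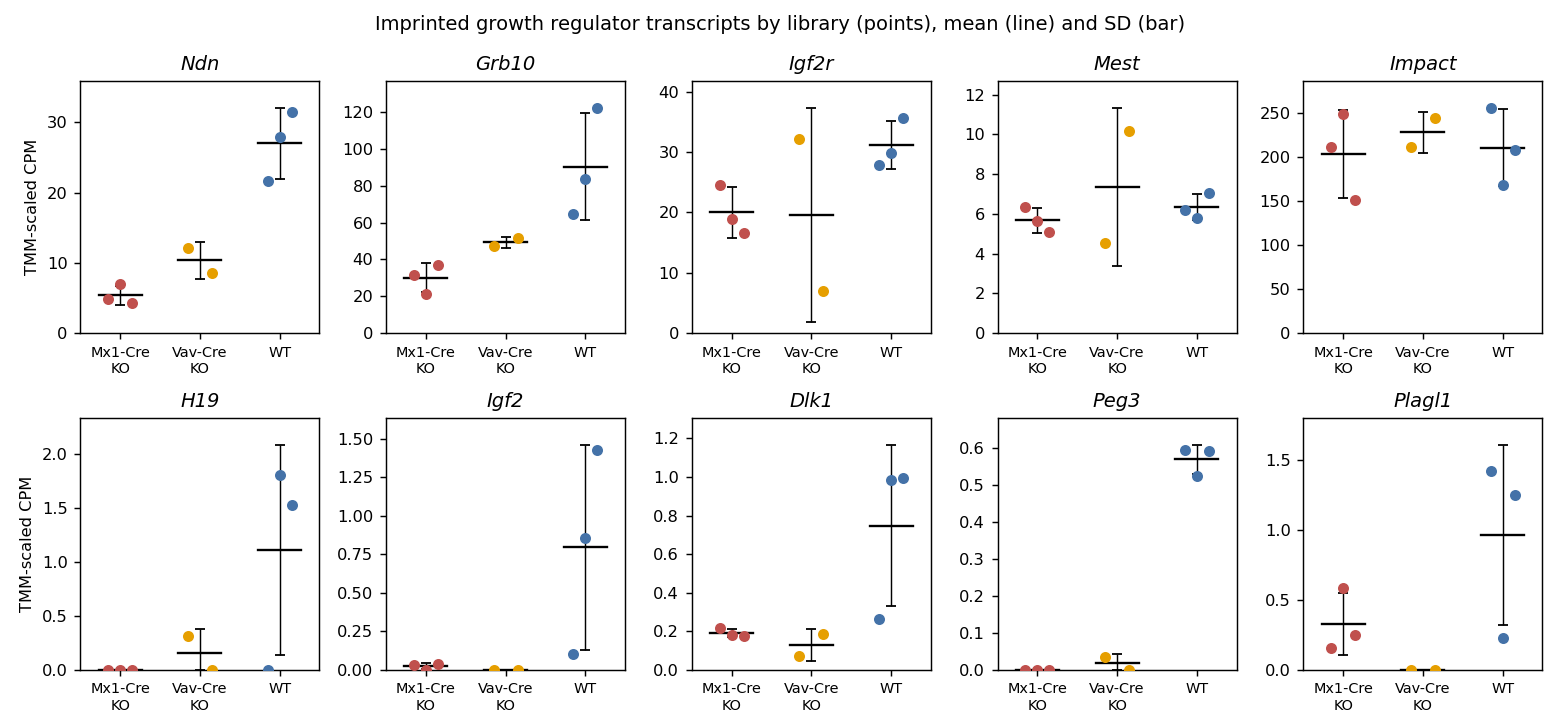
TMM-scaled CPM of each of the 10 imprinted members in every library (points), with the group mean (line) and SD (bar, drawn down to 0 at most), for Mx1-Cre knockout (n = 3), Vav-Cre knockout (n = 2) and WT (n = 3). Every axis starts at 0 and has its own scale: Ndn and Grb10 separate the 3 groups without overlap, Mest and Impact do not separate them, and the lower row holds members whose WT means are 1.11 CPM or less.

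Counted over the members, with both lines averaged Ndn, Grb10, Igf2 and Peg3 were called lower, 4 of 10, and none higher, against 2.1% of all 14086 tested genes called lower and 2.65% called in either direction. In Mx1-Cre 2 of 10, Ndn and Grb10, were called lower, against 2.1% of all genes called lower and 2.49% called in either direction. In Vav-Cre edgeR called 0 of 10, against 0.511% of all genes, while 6 had an unadjusted p under 0.05, as had 13.4% of all genes. DESeq2 called 3 of 10 in Vav-Cre (Ndn, Igf2 and Plagl1), against 4.25% of all genes, and limma-trend called Ndn, 1 of the 5 members it tested, against 1.17% of all genes. Between the lines edgeR and DESeq2 called 0 of 10 and limma-trend 0 of the 5 it tested, against 0.17%, 3.32% and 0.225% of all genes. By edgeR 3 had an unadjusted p under 0.05 (Ndn, Grb10 and Plagl1), as had 13.3% of all genes. For Ndn, Grb10, Igf2, Dlk1 and Peg3 all 5 knockout libraries lay below all 3 WT libraries, which was so for 7.28% of tested genes. These counts need a limit: H19, Igf2, Dlk1 and Peg3 reached the filter's level of 0.337 CPM in WT libraries only, so that they could be tested only through the group in which they are high. Plagl1 reached that level in 2 WT libraries and 1 Mx1-Cre library, so it too passed the filter only with WT. Among the 122 genes that reached the filter's level in WT libraries only, 15.6% were called lower with both lines averaged and 64.8% had all 5 knockout libraries below WT. The members were also chosen with earlier results of these data known, so the shares over all genes are no test of the list.

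Levels per length in WT set the members apart. Divided by exon length, WT levels were 41.1 ± 8.6 CPM per kb for Impact, 9.95 ± 3.21 for Grb10, 7.31 ± 1.36 for Ndn, 3.34 ± 0.43 for Igf2r and 1.61 ± 0.17 for Mest. Then came H19 at 0.451 ± 0.395 CPM per kb, Igf2 at 0.139 ± 0.117, Dlk1 at 0.132 ± 0.0741, Plagl1 at 0.123 ± 0.0822 and Peg3 at 0.0428 ± 0.0029. The difference between Grb10 and Ndn was below the SD of Grb10, those among H19, Igf2, Dlk1 and Plagl1 were below the SD of H19, and that between Plagl1 and Peg3 was below the SD of Plagl1. In the Mx1-Cre libraries Ndn had 1.45 ± 0.37 CPM per kb and Mest 1.44 ± 0.16. Lengths are the merged exons of the GRCm38 annotation, not those used for the counts.

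Igf2 and H19 are neighbours under 1 imprinting control region: Igf2, the growth factor, is made from the paternal copy, and H19, a noncoding RNA that is the precursor of miR-675, from the maternal copy. Igf2 had 1, 0 and 1 counts in Mx1-Cre, 0 and 0 in Vav-Cre, and 3, 26 and 46 in WT. All 5 knockout libraries were below the lowest WT library, and WT 1 lay far below the other WT libraries. Igf2 fell with both lines averaged (edgeR adjusted p = 0.0397). The 2 counts over the 5 knockout libraries against 75 over the WT libraries give a level 60.1-fold lower than WT, with a 95% interval of 16.1 to 506 that covers counting error only. In Vav-Cre, with no count, the level was at least 16.4-fold lower than in WT, against a floor of 3 counts over the group. In the GRCm38 annotation another gene model on the same strand covers 62.8% of the Igf2 exons and is no gene of its own in the count table. The call on Igf2 is lost, with edgeR adjusted p of 0.148 without WT 2, 0.191 without WT 3, 0.0779 without Mx1-Cre 1, 0.0563 without Mx1-Cre 3, 0.0783 without Vav-Cre 1 and 0.086 without Vav-Cre 2.

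H19 had 0 counts in all 3 Mx1-Cre libraries, 9 and 0 in Vav-Cre, and 0, 55 and 49 in WT. The WT library without a count is again WT 1, so that H19 overlapped between knockout and WT. Its Mx1-Cre level was at least 32.9-fold lower than WT, against a floor of 3 counts over the group, yet no edgeR comparison of H19 with WT passed 0.05 (adjusted p = 0.159 with both lines averaged, 0.15 in Mx1-Cre and 0.58 in Vav-Cre).

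Igf2r encodes the mannose 6-phosphate receptor that carries IGF2 to the lysosome, and is made from the maternal copy in mouse. It had 24.6, 18.9 and 16.5 CPM in Mx1-Cre, 32.1 and 7.004 in Vav-Cre, and 27.9, 29.9 and 35.6 in WT. The Mx1-Cre libraries lay below WT, as did 14.8% of tested genes, and the 2 Vav-Cre libraries lay on either side of the Mx1-Cre range. The log2 fold change with both lines averaged was -0.66 ± 0.38 (95% interval -1.49 to 0.18, edgeR adjusted p = 0.436). The values rest on which Vav-Cre library is kept: without Vav-Cre 1 the edgeR log2 fold change was -1.39 with both lines averaged (adjusted p = 0.0162), -2.15 in Vav-Cre (adjusted p = 0.0186) and -1.51 for Vav-Cre minus Mx1-Cre (adjusted p = 0.0403). Without Vav-Cre 2 the direction turned, to a log2 fold change of 0.04 in Vav-Cre (adjusted p = 0.988) and 0.68 for Vav-Cre minus Mx1-Cre (adjusted p = 0.6), and each of these values rests on 1 Vav-Cre library.

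**Figure D2:**
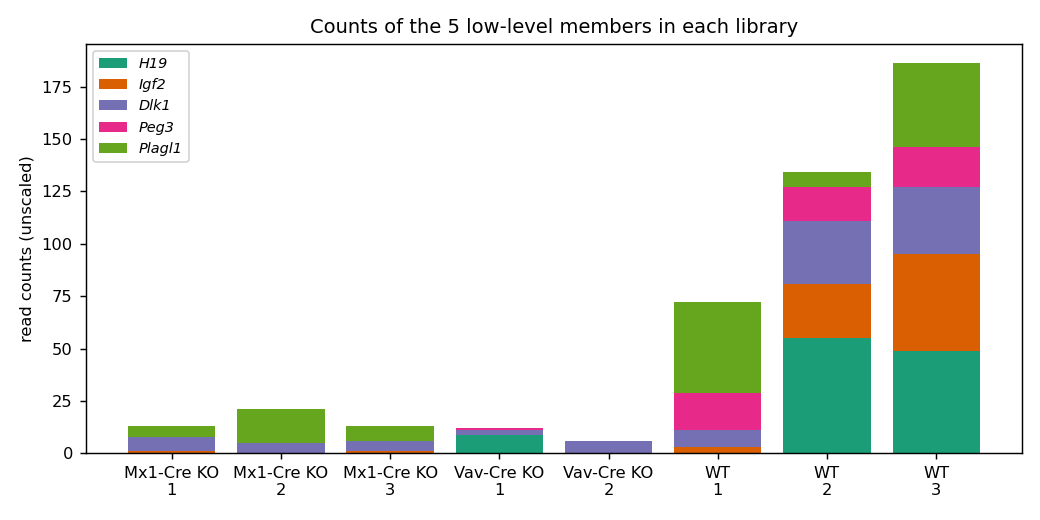
Unscaled read counts of the low-level members H19, Igf2, Dlk1, Peg3 and Plagl1, stacked for each library, from Mx1-Cre and Vav-Cre knockout libraries to WT libraries. The sums were 13, 21 and 13 in Mx1-Cre, 12 and 6 in Vav-Cre, and 72, 134 and 186 in WT, with WT 1 lowest of the WT libraries.

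Most other genes of insulin-like growth factor and insulin signalling were not called. Of 36 tested genes in this list, members included, with both lines averaged 4 fell by edgeR (Igf1, Igf2, Igf2bp2 and Grb10) and none rose. Igf2 and Grb10 are members already counted above, so that only Igf1 and Igf2bp2 add to those calls. Over all tested genes 2.1% were called lower. DESeq2 called 4 of the 36 lower and 2 higher, against 6.77% of all genes called in either direction. The edgeR median log2 fold change was 0.08 against 0.0004 over all tested genes. Igf1, the other growth factor of the axis, had 2.32, 0.871 and 2.84 CPM in Mx1-Cre, 2.31 and 0.217 in Vav-Cre, and 17.8, 12.7 and 16.8 in WT. Every knockout library was below every WT library, and the log2 fold change with both lines averaged was -3.31 ± 0.57 (edgeR adjusted p = 0.0185). Igf2bp2, an RNA-binding protein that binds Igf2 transcripts, had 10.9 ± 2.66 CPM in Mx1-Cre, 10.1 ± 2.55 in Vav-Cre and 29.97 ± 11.4 in WT, and its log2 fold change was -1.52 ± 0.28 (edgeR adjusted p = 0.0232). Both calls depend on WT libraries: the edgeR adjusted p of Igf1 was 0.0646, 0.0792 and 0.0828 without WT 1, 2 and 3, and that of Igf2bp2 was 0.137 without WT 2, 0.122 without WT 3 and 0.0627 without Vav-Cre 2. Pik3r1, a regulatory subunit of the kinase below these receptors, differed between the lines, with 87.0 ± 8.64 CPM in Mx1-Cre, 176 ± 37.6 in Vav-Cre and 138 ± 9.58 in WT.

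Cells from stroma or vessels express several of these growth genes in marrow, so their markers are given beside Igf2, Igf1, Dlk1 and H19. Of 20 stromal and endothelial markers 19 were detected, with a summed level of 87.8 to 133 CPM in Mx1-Cre, 147 to 159 in Vav-Cre and 184 to 218 in WT. Of the 15 that were tested, 14 had a negative log2 fold change with both lines averaged and the median was -0.75. Over all 14086 tested genes 7037 had a negative log2 fold change, and the median was 0.0004. Among the defining stromal markers, Lum was at 0 everywhere, Col3a1 had at most 1 count and Col1a1 0 to 14 counts per library, with 14, 5 and 7 in Mx1-Cre, 3 and 10 in Vav-Cre and 0, 12 and 0 in WT. Col1a2, the other chain of that collagen, had 520, 184 and 338 counts in Mx1-Cre, 292 and 218 in Vav-Cre and 593, 536 and 413 in WT. Nes and Acta2 were, like Igf2 and H19, low in WT 1: Nes had 0, 0 and 1 counts in Mx1-Cre, 0 and 0 in Vav-Cre and 2, 25 and 22 in WT, and Acta2 had 12, 17 and 5 in Mx1-Cre, 12 and 19 in Vav-Cre and 7, 36 and 33 in WT. Nes reached the filter's level in WT libraries only, so that it could be tested only through the group in which it is high. The endothelial marker Cdh5 had no count in Mx1-Cre, 1 and 6 in Vav-Cre and 0, 15 and 7 in WT. Kitl was also lowest in WT 1 among the WT libraries. It had 54, 10 and 15 counts in Mx1-Cre, 3 and 5 in Vav-Cre and 16, 56 and 38 in WT. Cxcl12, Lepr, Sparc and Adipoq were not lowest in WT 1. Cxcl12 had 231, 1 and 15 counts in Mx1-Cre, 12 and 0 in Vav-Cre and 44, 8 and 25 in WT. Lepr had 57, 0 and 0 in Mx1-Cre, 0 and 0 in Vav-Cre and 12, 17 and 0 in WT. Sparc had 27, 21 and 28 in Mx1-Cre, 3 and 16 in Vav-Cre and 14, 8 and 26 in WT. Adipoq had 20 counts in Mx1-Cre 1, 8 in WT 1 and none elsewhere. Bgn had 18.1 ± 2.10 CPM in Mx1-Cre, 31.4 ± 10.1 in Vav-Cre and 70.9 ± 4.85 in WT. It was the only one of the 15 tested markers that edgeR called with both lines averaged, and DESeq2 called 2. Over all tested genes edgeR called 2.65% and DESeq2 6.77% in either direction. The part of such cells in the growth gene levels was not tested.

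Dlk1, a transmembrane protein with EGF-like repeats related to the Notch ligands, is made from the paternal copy, and the noncoding RNAs Meg3 and Rian of the same cluster from the maternal copy. Dlk1 had 7, 5 and 5 counts in Mx1-Cre, 2 and 6 in Vav-Cre, and 8, 30 and 32 in WT. All knockout libraries were below WT 1, the lowest WT library, but the difference did not pass (edgeR log2 fold change -2.22 ± 0.74 with both lines averaged, adjusted p = 0.161). Meg3 had 0, 1 and 0 counts in Mx1-Cre, 2 and 43 in Vav-Cre, and 18, 196 and 428 in WT. It reached the filter's level in 3 WT libraries and 1 Vav-Cre library, so it passed the filter only with WT. Meg3 fell with both lines averaged (edgeR adjusted p = 0.0256) and in Mx1-Cre (edgeR adjusted p = 0.025). Its single count in Mx1-Cre against 642 in WT gives a level 609-fold lower, with a 95% counting interval of 109 to 24100, while the Vav-Cre level was 9.34-fold lower (6.9 to 12.9). With both lines averaged the edgeR adjusted p of Meg3 was 0.103 without WT 2, 0.125 without WT 3 and 0.0622 without Mx1-Cre 1, and leaving out WT 2 or 3 or any Mx1-Cre library gave 0.0618 to 0.105 in Mx1-Cre. Rian did not pass the filter, with 0 counts in Mx1-Cre, 3 over both Vav-Cre libraries and 47 over the WT libraries. In the Notch pathway list, of 18 tested genes edgeR called 1 and DESeq2 2 with both lines averaged, all lower. Over all genes edgeR called 2.65% and DESeq2 6.77% in either direction. The edgeR call was Notch1 (log2 fold change -0.61 ± 0.14, edgeR adjusted p = 0.0464), and the median log2 fold change of the list was -0.21. The Notch1 call is lost without any 1 of 7 of the 8 libraries, with edgeR adjusted p of 0.0567 to 0.216, and holds without Mx1-Cre 2.

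Peg3 and Plagl1 encode zinc-finger transcription factors made from the paternal copy, and Plagl1 is known in mouse to bind other imprinted genes. Peg3 had 0, 0 and 0 counts in Mx1-Cre, 1 and 0 in Vav-Cre, and 18, 16 and 19 in WT. It was the most even of the low members among WT libraries, at 0.570 ± 0.039 CPM, and unlike Igf2, H19 and Dlk1 it was not lower in WT 1. Peg3 fell with both lines averaged (edgeR adjusted p = 0.0363), and the single count over 5 knockout libraries against 53 in WT gives a level 85-fold lower with a 95% counting interval of 14.6 to 3420. In Mx1-Cre its level was at least 16.8-fold lower, against a floor of 3 counts over the group, with an edgeR adjusted p of 0.0571. The call with both lines averaged is lost without WT 1, 2 or 3 (edgeR adjusted p = 0.118, 0.146 and 0.151), without Mx1-Cre 1 (0.0631) and without Vav-Cre 1 or 2 (0.0566 and 0.078).

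Plagl1 had 5, 16 and 7 counts in Mx1-Cre, 0 and 0 in Vav-Cre, and 43, 7 and 40 in WT. Here the low WT library was WT 2, which lay within the Mx1-Cre range, and Vav-Cre lay below both other groups, as 17.1% of tested genes did below WT and 12% below Mx1-Cre. The Vav-Cre level was at least 19.6-fold lower than WT, against a floor of 3 counts over the group, and that of Mx1-Cre was 3.05-fold lower (95% counting interval 1.98 to 4.84). With all libraries and the filter on low counts, no edgeR comparison of Plagl1 passed (adjusted p = 0.0575 with both lines averaged, 0.104 in Vav-Cre, 0.456 in Mx1-Cre and 0.212 between the lines). With both lines averaged it was called by edgeR with no filter (adjusted p = 0.0368) and without Mx1-Cre 2 (adjusted p = 0.0496), and by DESeq2 (adjusted p = 0.00731). None of the 3 tested genes of the PLAG family, Plagl1 included, was called by edgeR with both lines averaged. There 1 had an unadjusted p under 0.05 by edgeR, as had 16.5% of all genes, and DESeq2 called 1 and limma-trend 0.

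Mest and Impact showed no difference past the test. Mest encodes a hydrolase-fold protein made from the paternal copy. It had 6.33, 5.66 and 5.07 CPM in Mx1-Cre, 4.55 and 10.2 in Vav-Cre, and 6.17, 5.78 and 7.06 in WT. The 2 Vav-Cre libraries lay at either end of all 8, and the log2 fold change with both lines averaged was 0.03 ± 0.29 (95% interval -0.61 to 0.67, edgeR adjusted p = 0.976). Exons of Copg2 on the opposite strand cover 23.1% of the Mest exons in the GRCm38 annotation and the libraries carry no strand, so the Mest counts are uncertain. Impact, which restrains the translation kinase GCN2 by competing for its activator GCN1, was the most abundant member, at 204 ± 49.8 CPM in Mx1-Cre, 228 ± 23.6 in Vav-Cre and 211 ± 44.1 in WT. Its log2 fold change was 0.03 ± 0.18 with both lines averaged, and the 95% interval of -0.37 to 0.44 bounds how large a difference these libraries allow (edgeR adjusted p = 0.96). Of 13 tested genes around Impact and GCN2 edgeR called 0 with both lines averaged, with 2 at an unadjusted p under 0.05, as were 16.5% of all genes. DESeq2 and limma-trend each called 1, against 6.77% and 4.12% of all genes.

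**Figure D3:**
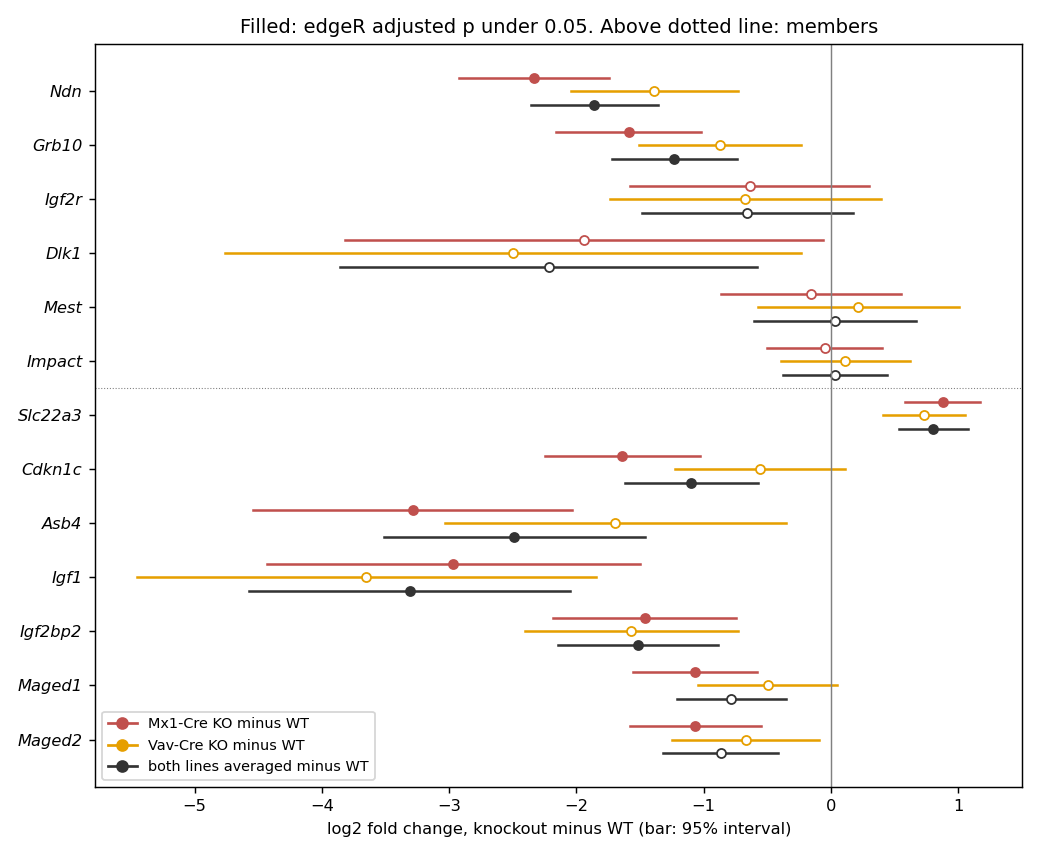
edgeR log2 fold changes, knockout minus WT, with 95% intervals, for Mx1-Cre (red), Vav-Cre (orange) and both lines averaged (black), of members with over 3 counts in every group (above the dotted line) and of Slc22a3, Cdkn1c, Asb4, Igf1, Igf2bp2, Maged1 and Maged2 (below it). Filled points passed an adjusted p of 0.05: Ndn and Grb10 passed in Mx1-Cre and with both lines averaged, Slc22a3 was higher, and no gene drawn passed in Vav-Cre.

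Most other imprinted genes were not called. Of 10 tested genes from the members' own clusters, Slc22a3 rose and Meg3 fell with both lines averaged, and the other 8 were not called (Mkrn3, Peg12, Ube3a, Airn, Begain, Ddc, Cobl and Copg2). Over all tested genes 2.65% were called in either direction. Slc22a3, an organic cation transporter gene beside Igf2r, had 233, 182 and 211 CPM in Mx1-Cre, 191 and 185 in Vav-Cre, and 110, 105 and 124 in WT. All knockout libraries were above all WT libraries as were 4.41% of tested genes (log2 fold change 0.81 ± 0.12, edgeR adjusted p = 0.0119), against 0.547% of tested genes called higher. The call on Slc22a3 is lost without WT 1, 2 or 3, with edgeR adjusted p of 0.0539, 0.0931 and 0.0549. Airn, the noncoding RNA that silences the paternal Igf2r copy, had 1.67 ± 0.53 CPM in Mx1-Cre, 2.27 ± 1.06 in Vav-Cre and 3.31 ± 0.96 in WT and was not called. In the Ndn cluster, Magel2 and Snurf are listed at 0 in every library, Peg12 had 33.3 ± 14.1 CPM in Mx1-Cre, 36.1 ± 7.04 in Vav-Cre and 47.6 ± 5.29 in WT, and Ube3a had 99.6 ± 3.48 CPM in Mx1-Cre, 100.8 ± 0.89 in Vav-Cre and 87.8 ± 0.99 in WT.

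Among 35 tested imprinted genes from other clusters 3 fell by edgeR with both lines averaged (Cdkn1c, Asb4 and Zdbf2) and none rose. Over all tested genes 2.1% were called lower. DESeq2 called 6 of the 35 lower and 1 higher, against 6.77% of all genes called in either direction. The edgeR median log2 fold change was -0.15. Cdkn1c, the gene of p57, an inhibitor of cyclin-dependent kinases, had 5.71, 4.57 and 5.11 CPM in Mx1-Cre, 10.3 and 11.5 in Vav-Cre, and 10.4, 17.8 and 19.8 in WT. Like Ndn and Grb10 it was lower in Mx1-Cre than in Vav-Cre without overlap, as were 13.8% of tested genes, but a Vav-Cre library overlapped WT 1. Its log2 fold change was -1.10 ± 0.24 with both lines averaged (edgeR adjusted p = 0.0376) and -1.64 ± 0.27 in Mx1-Cre (edgeR adjusted p = 0.0151). An antisense model covers 30.7% of its exons in the GRCm38 annotation. The call with both lines averaged holds only without WT 1 or Mx1-Cre 2 among the libraries left out in turn, and the other 6 give an edgeR adjusted p of 0.0526 to 0.203. In Mx1-Cre it is lost without WT 2, WT 3 or Mx1-Cre 1 (edgeR adjusted p = 0.0863, 0.0755 and 0.0609). Asb4, an ankyrin-repeat and SOCS-box gene, had 0.675 ± 0.491 CPM in Mx1-Cre, 2.07 ± 0.147 in Vav-Cre and 6.69 ± 2.89 in WT (log2 fold change -2.49 ± 0.46, edgeR adjusted p = 0.0229), and without WT 1, WT 2, WT 3, Vav-Cre 1 or Vav-Cre 2 the edgeR adjusted p was 0.113, 0.125, 0.0549, 0.0571 and 0.057. Zdbf2 had 1 count over 5 knockout libraries and 59 over the WT libraries (edgeR adjusted p = 0.0494), and leaving out any 1 library raised that adjusted p to 0.056 to 0.211. Zdbf2 too reached the filter in WT libraries only. Of 14 tested genes for factors that set or keep imprints, edgeR, DESeq2 and limma-trend called 0 with both lines averaged. By edgeR 3 had an unadjusted p under 0.05, as had 16.5% of all genes.

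**Figure D4:**
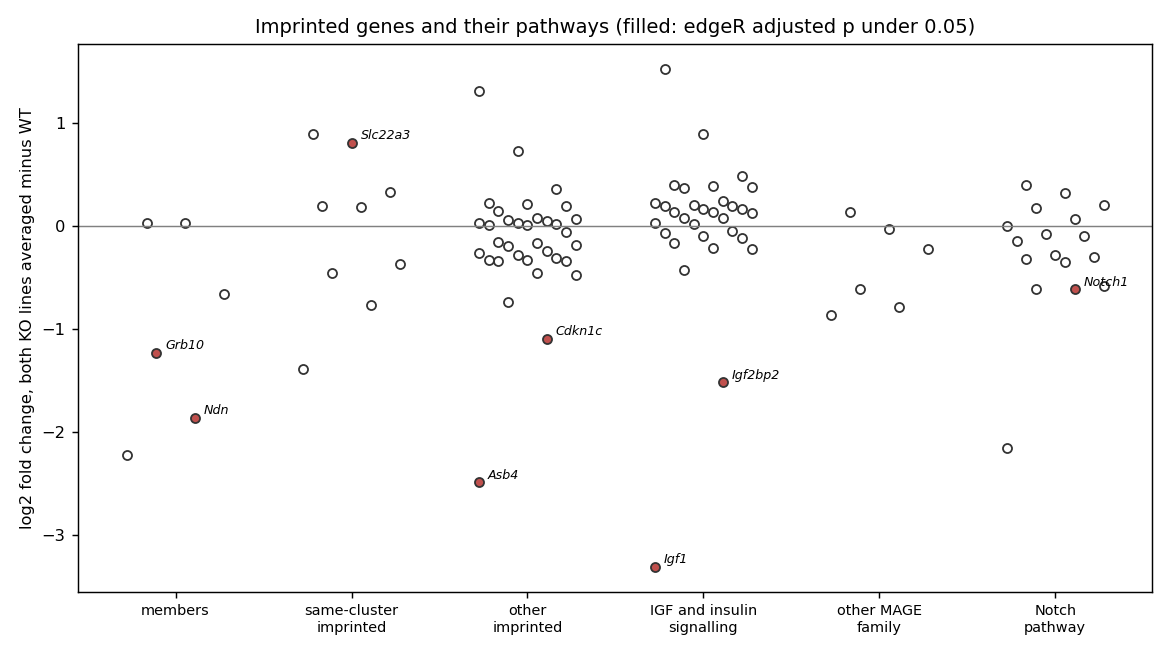
edgeR log2 fold change of both knockout lines averaged minus WT for single genes (points), grouped as members, imprinted genes of the same clusters, other imprinted genes, insulin-like growth factor and insulin signalling, other MAGE family genes and the Notch pathway; filled and named points passed an adjusted p of 0.05. Genes with 3 counts or fewer in a group are left out (the members H19, Igf2, Peg3 and Plagl1, and Meg3, Zdbf2, Irs1 and Igfbp5), and most points lie near 0, with Igf1, Asb4, Ndn, Igf2bp2, Grb10 and Cdkn1c the lowest of the named ones before Notch1.

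Within the MAGE family, to which necdin belongs, 7 genes were tested. Ndn was the only one that edgeR called with both lines averaged, while DESeq2 and limma-trend also called Maged1 and Maged2, each lower. Over all tested genes edgeR called 2.65%, DESeq2 6.77% and limma-trend 4.12% in either direction. In Mx1-Cre Maged1 and Maged2 also fell by edgeR, so that 3 of the 7 were called lower, against 2.1% of all genes. Maged1 had 110 ± 36.6 CPM in Mx1-Cre, 163 ± 36.8 in Vav-Cre and 230 ± 16.4 in WT, with a log2 fold change in Mx1-Cre of -1.07 ± 0.22 (edgeR adjusted p = 0.0346). Maged2 had 50.3 ± 11.9 CPM in Mx1-Cre, 66.1 ± 25.97 in Vav-Cre and 105 ± 11.5 in WT, with a log2 fold change in Mx1-Cre of -1.06 ± 0.23 (edgeR adjusted p = 0.0428). Leaving out any 1 of WT 1, 2 or 3 or Mx1-Cre 1 or 3 raised the edgeR adjusted p to 0.0825 to 0.137 for Maged1 and 0.079 to 0.154 for Maged2. Of 14 tested genes for proteins that necdin is known to bind or act on, edgeR, DESeq2 and limma-trend called 0 with both lines averaged. By edgeR 2 had an unadjusted p under 0.05, as had 16.5% of all genes.

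The genes most like each called member were taken by Pearson's r of log2 CPM over the 8 libraries, among 9583 to 9584 tested genes with a mean log2 CPM of at least 3. All share the same libraries and the split between knockout and WT, so r is a description. For Ndn they were Mgst1 (r = 0.9905), Eepd1, Fam213a, Jam3 and Casp6, for Grb10 Gdf3 (r = 0.9925), Slc12a2, Fgfr1 and Man1c1. For Igf2 they were Tbrg1 (r = 0.989), Igf2bp2, Casd1, Ahi1 and Gnptg, and for Peg3 Maoa (r = 0.9882), Gprasp2, Rhobtb3, Mettl1 and Ipo4. Jam3, nearest to Ndn in size of difference, averaged 5.14 CPM in Mx1-Cre, 11.04 in Vav-Cre and 30.8 in WT.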

How the data were processed

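The libraries came from SMARTer Ultra Low Input cDNA and a NEBNext kit and keep no strand, per the labels' protocols. The submitters' processing notes name TopHat, SAMtools, HTSeq, edgeR and the mm9 build. Tool versions, annotation and counting settings are not given in those sources. The deposited counts are raw read counts per gene symbol for 8 libraries. The deposited CPM table scales those counts by library totals for 12457 genes, 5 members among them, and served only one alternative.

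Counts were filtered (filterByExpr, minimum count 10, minimum total 15, 14086 genes left), scaled with TMM and fitted in edgeR 4.0.16 (R 4.3.3) by the quasi-likelihood test in 1 model over all libraries. The 4 contrasts were both lines averaged against WT, each line against WT, and the difference Vav-Cre minus Mx1-Cre. P-values were adjusted by Benjamini-Hochberg over every tested gene, and a gene "rose", "fell" or was "called" under 0.05. Standard errors were taken as the size of the log2 fold change divided by the root of the F statistic. Folds of genes with few counts are ratios of summed counts per scaled depth, with exact 95% binomial intervals or a floor of 3 counts over the group. Reads carry no molecular identifiers, so those intervals and floors cover counting error only. Alternatives used DESeq2 1.42.0, limma 3.58.1 (limma-trend on log2(CPM + 1)), other scalings and filters, a replicate block, and leaving out single libraries. The scripts were tested on simulated counts.

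The members and lists were chosen with earlier results of these data known. Named were all members, list genes called in any comparison, tested genes of the members' clusters and, for each called member, the 5 genes of highest r. A few genes that this rule names are not reported here. Fitted fold changes are not given where a group had 3 counts or fewer.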

Additional observations from a re-analysis of the deposited data

Results flagged for a closer look

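No member differed between the knockout lines past the test. Genes of the pathway and marker lists that did, by the edgeR difference Vav-Cre minus Mx1-Cre, follow. Pik3r1 had a log2 difference of 1.02 (adjusted p = 0.044), with 150 and 203 CPM in Vav-Cre and 80.7 to 96.8 CPM in Mx1-Cre, on either side of the WT mean of 138 CPM. The Pik3r1 difference did not pass without WT 1, 2 or 3, Mx1-Cre 1 or 3, or Vav-Cre 2 (adjusted p = 0.0727 to 0.201). Fgd5, a stem cell marker, had a log2 difference of 2.43, with 17.2 and 15.2 CPM in Vav-Cre and 1.70 to 4.06 CPM in Mx1-Cre. Slamf1, the gene for CD150, which was used to sort the cells, had a log2 difference of 0.99, with 105 and 108 CPM in Vav-Cre and 49.0 to 58.1 CPM in Mx1-Cre.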

How the results depend on the processing

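Ndn kept its direction and its call under all 16 alternatives with both lines averaged (adjusted p up to 0.0453) and all 17 in Mx1-Cre (up to 0.0293). With both lines averaged the members called were 4 by edgeR, against 5 with DESeq2 and 5 with no filter (Plagl1 added in both), 2 with limma-trend on the CPM table, which lacks Igf2 and Peg3, 2 with a filter of 1 CPM in at least 2 libraries, 2 with the replicate block, and 1 to 5 with each library left out, where Ndn alone was left without WT 2 or WT 3. In Mx1-Cre they were 2, against 4 with DESeq2 and 1 to 3 with a library left out. In Vav-Cre they were 0, against 3 with DESeq2, 1 with limma-trend, 1 with no filter and 0 to 1 with a library left out (Ndn without Mx1-Cre 2, Igf2r without Vav-Cre 1). Between the lines they were 0, and 0 to 1 with a library left out (Igf2r without Vav-Cre 1).

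The labels do not say whether replicate numbers pair the samples. After removal of group means, same-numbered libraries correlated at -0.0705 to 0.129 and other libraries of different groups at -0.177 to 0.163. With 2 or 3 libraries in a group these values cannot decide whether the samples were paired. The replicate block gave 218 genes called with both lines averaged against 373, 20 against 72 in Vav-Cre and 9 against 24 between the lines. It ended the calls, with both lines averaged, of Igf2 (adjusted p = 0.118), Peg3 (0.111), Cdkn1c (0.0917), Zdbf2 (0.155), Igf2bp2 (0.0577) and Notch1 (0.101), in Mx1-Cre of Maged2 (0.0731), Pik3r1 (0.0644), Igf2bp2 (0.0777) and Notch1 (0.0731), and between the lines of Pik3r1 (0.112). Counts over all genes with both lines averaged were 953 with DESeq2, and 23 to 498 with a library left out. In Mx1-Cre they were 351, against 1042 with DESeq2, 604 with limma-trend, 572 with only the groups compared and 58 to 577 with a library left out. In Vav-Cre, against 72, they were 599, 146 with limma-trend, 174 with no filter, 110 with only the groups compared and 5 to 190 with a library left out. Between the lines, against 24, they were 468, 81 with no filter, 4 with only the groups compared and 3 to 404 with a library left out.

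Outside the members, limma-trend ended the calls of Meg3 with both lines averaged (adjusted p = 0.072) and in Mx1-Cre (0.0579). Signs turned for Mest, Impact, Igf2r and Cobl, none of them called by edgeR with all 8 libraries. With both lines averaged Mest became -0.057 and Impact -0.0135 with limma-trend, Mest -0.0162 and Impact -0.0175 with library totals as the only scaling, an alternative chosen after seeing the data, and Impact -0.0312 with the replicate block. With a library left out, the log2 fold changes with both lines averaged ran from -0.316 to 0.263 for Mest, -0.107 to 0.196 for Impact and -2.67 to 2.45 for Cobl. In Mx1-Cre Impact ran from -0.21 to 0.127. In Vav-Cre Impact ran from -0.0256 to 0.278, Igf2r from -2.15 to 0.0442 and Mest from -0.477 to 0.681. Between the lines Igf2r ran from -1.51 to 0.683, Impact from -0.0135 to 0.33 and Mest from -0.321 to 0.837, and Igf2r became 0.00793 with upper quartile scaling and 0.0104 with library totals. The causes were not tested. Depth limits H19, Igf2, Dlk1, Peg3 and Plagl1, at 55 counts or fewer in any library.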

Other observations

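Genes known from fetal blood stem cells were taken as a separate list, and 6 of its genes were tested. Lin28b, which encodes a fetal RNA-binding protein that blocks let-7 microRNA processing, had 0 counts in all 3 Mx1-Cre libraries, 0 and 4 in Vav-Cre, and 21, 67 and 77 in WT. Its Mx1-Cre level was at least 52.2-fold lower than WT, against a floor of 3 counts over the group, and its Vav-Cre level 27-fold lower (95% counting interval 10.3 to 100). Lin28b and Igf2bp2 were called lower with both lines averaged, Lin28b with an edgeR adjusted p of 0.0226, and none was called higher by edgeR. Over all tested genes edgeR called 2.1% lower. DESeq2 called 3 of the 6 lower and limma-trend 1 of the 4 it tested, against 6.77% and 4.12% of all genes in either direction. Igf2bp2 is also in the insulin-like growth factor list above. Lin28b reached the filter in WT libraries only, so that it could be tested only through the group in which it is high. Without WT 2 or WT 3 the adjusted p of Lin28b was 0.125 or 0.113. As for Igf2, H19, Dlk1 and Meg3, WT 1 held the fewest Lin28b and Zdbf2 counts of the WT libraries, with 2 Zdbf2 counts against 30 and 27 in WT 2 and 3.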
